A study of Rattus norvegicus with 12 samples.

Results

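Vascular calcification regulators are the genes whose products hold back or promote the deposition of calcium phosphate in the vessel wall. The 10 genes named for this account were Enpp1, Ankh, Mgp, Spp1 and Tnfrsf11b, whose products are known as inhibitors of mineralisation, and Alpl, Slc20a1, Bmp2, Runx2 and Sox9, whose products are known to promote it or to drive cells towards a bone or cartilage phenotype. They were chosen for their known roles, with earlier results of these data known, and each was read from the probe set with that gene as its only symbol. Of the 14506 genes that could be named in this way, 9 were members, each with 1 probe set. No probe set used here carried the symbol Sox9, which was therefore not analysed here.

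The cells were aortic vascular smooth muscle cells of Sprague-Dawley rats, and their RNA was read on Affymetrix Rat Gene 1.0 ST arrays. All groups were cultured with 10% serum and then held in serum-free medium for 48 h. The 12 arrays comprise 3 of untreated cells and 3 each for exposure to 100 nM angiotensin II (Ang II) lasting 6 h, 12 h or 24 h. Ang II is a vasoconstrictor hormone to which smooth muscle responds. These times come from the titles and the study design, while the treatment protocol lists 1, 3 or 24 h. Replicates are labelled biological, but separate animals or cultures are not named, and p-values then reflect no more than the spread among the arrays. Every untreated array is labelled 0 h, so that Ang II and time in culture cannot be told apart. The comparisons with untreated cells share the same 3 untreated arrays.

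Values are log2 expression values as deposited. Arrays of 1 group correlated at 0.9975 to 0.9984 across genes, which are not independent replicates, and arrays of different groups at 0.9868 to 0.9941. Array medians were 7.22 to 7.32. The 11 smooth muscle markers, among them Acta2, Myh11 and Cnn1, had group means of 9.31 to 14.5, and the 9 leukocyte and macrophage markers had group means of 5.22 to 6.87. The 8 endothelial markers ranged from 5.02 to 9.04. The 8 fibroblast markers ranged from 3.94 to 11.8, and several of them, such as Lum and Dcn, are also made by smooth muscle cells. In such bulk samples fewer cells of a type and less RNA per cell cannot be told apart.

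Mineral forms where the balance of phosphate and pyrophosphate tips. Pyrophosphate blocks the growth of hydroxyapatite crystals. It is made outside the cell from ATP by Enpp1, its supply to the outside of the cell depends on Ankh, and it is cleaved to phosphate by Alpl, tissue-nonspecific alkaline phosphatase. Mgp (matrix Gla protein) and Spp1 (osteopontin) are secreted proteins that bind mineral, and Tnfrsf11b (osteoprotegerin) is a decoy receptor for RANK ligand. Slc20a1 (PiT-1) takes up phosphate, Bmp2 is a bone-inducing growth factor, and Runx2 is the transcription factor that commits cells to the osteoblast fate. In smooth muscle these same genes are known for their part in arterial calcification.

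Genes named as inhibitors were higher after Ang II at every time, whereas those named as drivers moved in different directions. All 5 inhibitor genes rose at 6 h, at 12 h and at 24 h (limma, adjusted p under 0.05). In these 15 comparisons the 3 Ang II arrays always lay above the 3 untreated arrays. Of the 12 comparisons of the 4 measured driver genes with untreated cells, 6 passed. At 6 h, 7 of the 9 members were higher, against 18.6% of all genes, and 1 was lower, against 17.2% (35.8% in either direction). The arrays of 8 members did not overlap those of untreated cells, against 47.2% of all genes. At 12 h, 6 were higher and 1 lower, against 13.3% of all genes higher and 13.3% lower (26.6% together), and 7 did not overlap, against 40.8%. At 24 h, 6 were higher and 0 lower by limma, against 15.3% and 14.7% of all genes (30% together), and 7 did not overlap, against 44.8%. At an unadjusted p under 0.05, 1 member was lower at 24 h, and the share of all genes at that looser threshold was not counted. The median log2 change of the members was 0.43 at 6 h, 0.35 at 12 h and 0.28 at 24 h, where the median of all genes was 0.01, 0.0050 and 0.05. By the F test of limma across groups, all 9 members passed (adjusted p 1.49e-09 for Enpp1 to 0.0235 for Alpl), against 51.5% of all genes.

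**Figure D1:**
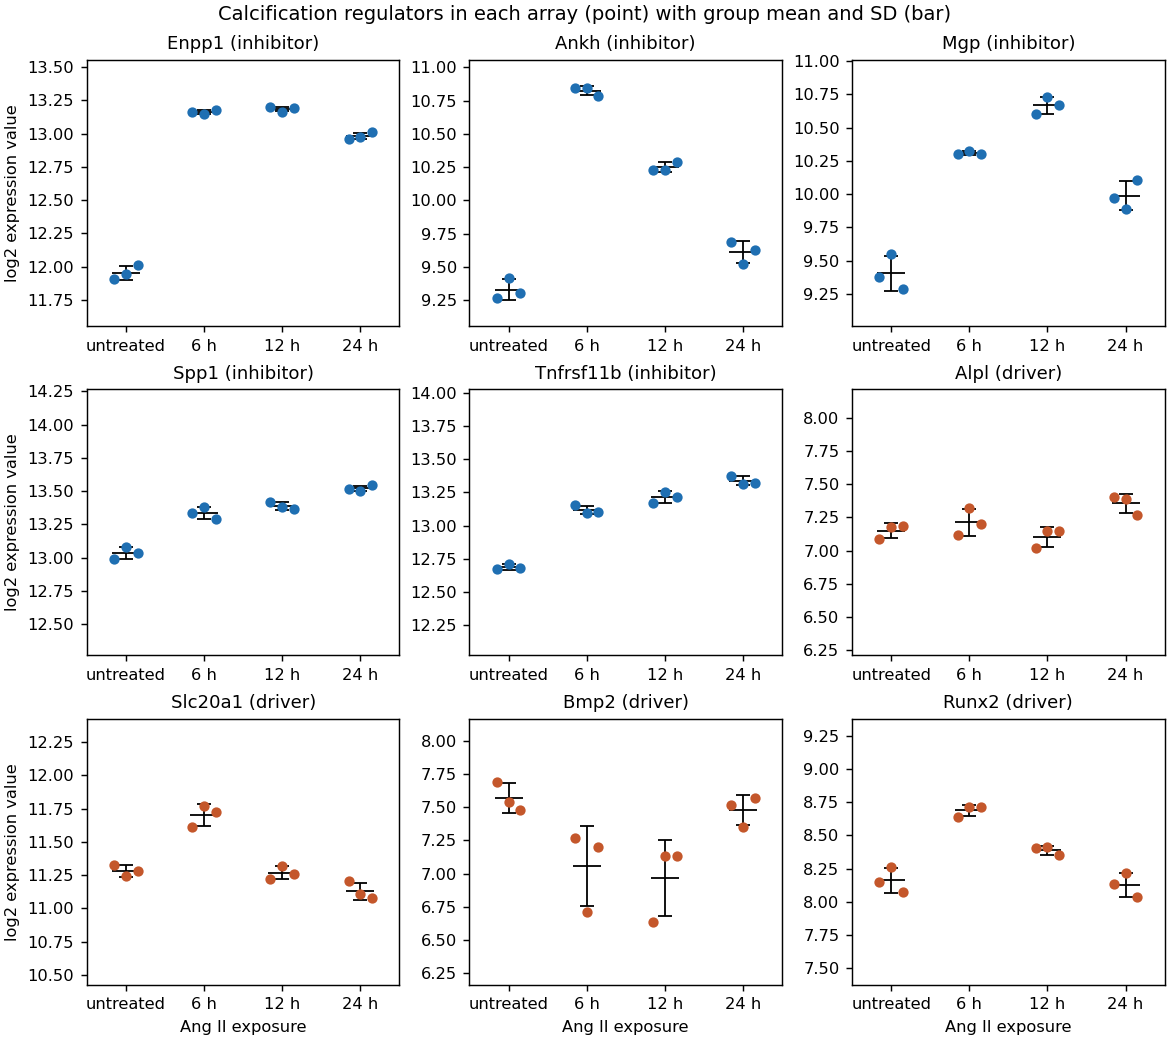
Log2 expression value (vertical axis, each panel spanning 2 log2 units) of the 9 measured calcification regulators in untreated cells and after 6, 12 and 24 h of Ang II. Points are single arrays, bars the group mean and SD of 3 arrays, blue for inhibitors and orange for drivers. Enpp1 stays near 13.2 at 6 and 12 h, Ankh is highest at 6 h, Mgp at 12 h, and Bmp2 has 1 low array each at 6 and 12 h.

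Enpp1 (NCBI gene 85496), which makes pyrophosphate from extracellular ATP, had 11.91, 11.94 and 12.01 in untreated cells, 13.16, 13.15 and 13.18 at 6 h, 13.20, 13.16 and 13.19 at 12 h, and 12.96, 12.98 and 13.01 at 24 h. All Ang II arrays lay above all untreated arrays, and the 24 h arrays lay below those of 6 and 12 h. The rise was 2.31-fold at 6 h (log2 change 1.21 ± 0.04, SE, n = 3 per group, limma adjusted p = 9.23e-10), 2.35-fold at 12 h (1.23 ± 0.04, adjusted p = 1.79e-09) and 2.04-fold at 24 h (1.03 ± 0.04, adjusted p = 8.58e-09). The level did not differ detectably between 12 h and 6 h (difference 0.02, 95% interval −0.06 to 0.11) and was lower at 24 h than at 12 h (−0.20 ± 0.04, adjusted p = 0.00266).

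Ankh (NCBI gene 114506), the membrane protein on which extracellular pyrophosphate depends, had 9.27, 9.42 and 9.31 in untreated cells, 10.84, 10.85 and 10.78 at 6 h, 10.23, 10.23 and 10.29 at 12 h, and 9.69, 9.52 and 9.63 at 24 h. None of the 4 groups overlapped another. Its rise at 6 h, 2.82-fold (log2 change 1.49 ± 0.05, SE, n = 3 per group, limma adjusted p = 1.89e-09), was the largest among the members at that time and ranked 97 of 14506 genes by absolute change. The rise was 1.89-fold at 12 h (0.92 ± 0.05, adjusted p = 1.6e-07) and 1.22-fold at 24 h (0.28 ± 0.05, adjusted p = 0.00174). Each later time was lower than the time before it, by −0.57 ± 0.05 at 12 h against 6 h (adjusted p = 1.18e-05) and by −0.64 ± 0.05 at 24 h against 12 h (adjusted p = 5.74e-06).

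Mgp (NCBI gene 25333), the vitamin K-dependent protein whose loss in mice calcifies the arteries, had 9.38, 9.55 and 9.28 in untreated cells, 10.30, 10.33 and 10.30 at 6 h, 10.60, 10.73 and 10.67 at 12 h, and 9.97, 9.89 and 10.10 at 24 h. The groups did not overlap, and the 12 h arrays were the highest. The rise was 1.87-fold at 6 h (log2 change 0.91 ± 0.07, SE, n = 3 per group, limma adjusted p = 1.09e-06), 2.40-fold at 12 h (1.27 ± 0.07, adjusted p = 1.22e-07) and smaller at 24 h (log2 change 0.58 ± 0.07, adjusted p = 6.72e-05). The 12 h level was above that of 6 h (0.36 ± 0.07, adjusted p = 0.00265), and the 24 h level was below that of 12 h (−0.68 ± 0.07, adjusted p = 3.26e-05).

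Spp1 (NCBI gene 25353) encodes osteopontin, an acidic phosphoprotein of bone that binds mineral and inhibits crystal growth. It had 12.99, 13.08 and 13.03 in untreated cells, 13.34, 13.38 and 13.29 at 6 h, 13.42, 13.38 and 13.37 at 12 h, and 13.52, 13.50 and 13.54 at 24 h. The 24 h arrays were the highest, and the 6 and 12 h arrays overlapped. It rose 1.23-fold at 6 h (log2 change 0.30 ± 0.04, SE, n = 3 per group, limma adjusted p = 0.000111), 1.28-fold at 12 h (0.35 ± 0.04, adjusted p = 5.3e-05) and 1.40-fold at 24 h (0.49 ± 0.04, adjusted p = 4.1e-06).

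Tnfrsf11b (NCBI gene 25341) encodes osteoprotegerin, which keeps RANK ligand from its receptor and whose loss in mice calcifies arteries. It had 12.67, 12.71 and 12.68 in untreated cells, 13.15, 13.10 and 13.10 at 6 h, 13.17, 13.25 and 13.22 at 12 h, and 13.38, 13.31 and 13.32 at 24 h. No group overlapped another, and each later group was higher. It rose 1.35-fold at 6 h (log2 change 0.43 ± 0.04, SE, n = 3 per group, limma adjusted p = 4.3e-06), 1.44-fold at 12 h (0.53 ± 0.04, adjusted p = 1.42e-06) and 1.57-fold at 24 h (0.65 ± 0.04, adjusted p = 3.03e-07). Against 6 h, the 24 h level was higher for Tnfrsf11b (0.22 ± 0.04, adjusted p = 0.000937) and for Spp1 (0.19 ± 0.04, adjusted p = 0.00388). Between 12 h and 24 h the difference was 0.12 ± 0.04 for Tnfrsf11b (adjusted p = 0.0406) and 0.13 ± 0.04 for Spp1 (adjusted p = 0.0355). These last calls were lost in 15 and in 11 of 22 alternative analyses.

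**Figure D2:**
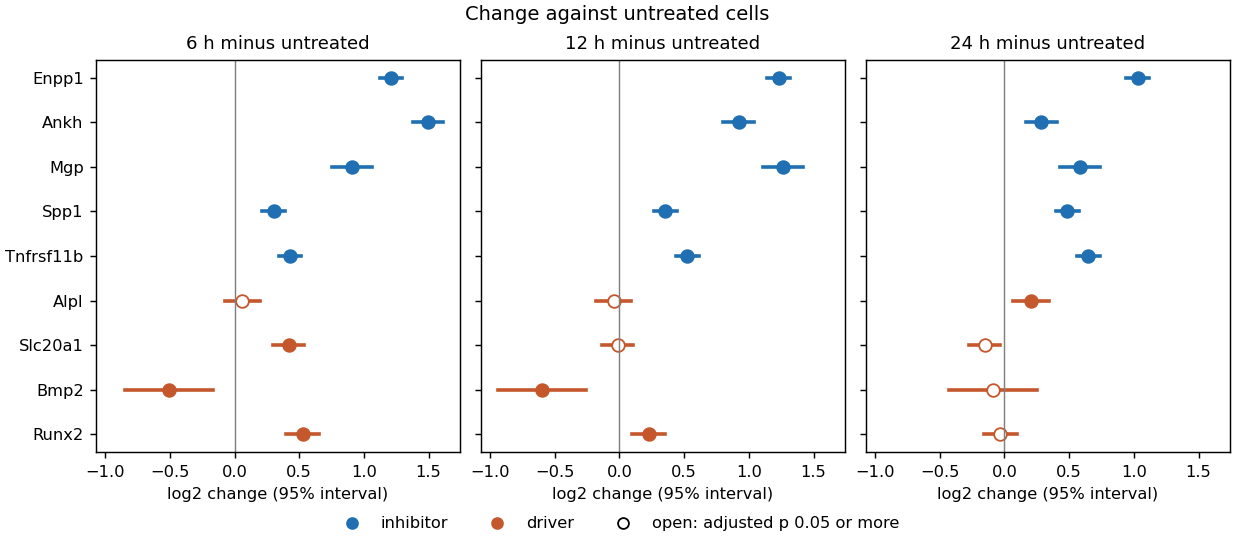
Log2 change against untreated cells (horizontal axis) with its 95% interval for each measured member (rows) after 6, 12 and 24 h of Ang II, from the limma fit to 12 arrays. Filled points passed an adjusted p of 0.05. The 5 inhibitors (blue) lie to the right of 0 at each time, from 0.28 to 1.49, while the 4 drivers (orange) lie between −0.60 and 0.53.

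Runx2 (NCBI gene 367218), the osteoblast master regulator, rose early and was back at the untreated level by 24 h. It had 8.15, 8.26 and 8.07 in untreated cells, 8.64, 8.71 and 8.72 at 6 h, 8.40, 8.41 and 8.35 at 12 h, and 8.13, 8.22 and 8.04 at 24 h. The 6 h and 12 h arrays lay above the untreated ones, which overlapped those of 24 h. The rise was 1.44-fold at 6 h (log2 change 0.53 ± 0.06, SE, n = 3 per group, limma adjusted p = 1.82e-05) and 1.17-fold at 12 h (0.23 ± 0.06, adjusted p = 0.0123). Without untreated replicate 3 the 12 h change was 0.18 (adjusted p = 0.0589). At 24 h the change was −0.03 with a 95% interval of −0.16 to 0.09, and its sign depended on the scaling. The fall between times passed both at 12 h against 6 h (−0.30 ± 0.06, adjusted p = 0.00221) and at 24 h against 12 h (−0.26 ± 0.06, adjusted p = 0.0063).

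Slc20a1 (NCBI gene 81826), the sodium-dependent phosphate transporter PiT-1, had 11.33, 11.24 and 11.28 in untreated cells, 11.61, 11.77 and 11.72 at 6 h, 11.22, 11.32 and 11.26 at 12 h, and 11.20, 11.11 and 11.08 at 24 h. The 6 h arrays stood above all others. It rose 1.34-fold at 6 h (log2 change 0.42 ± 0.05, SE, n = 3 per group, limma adjusted p = 6.21e-05), and was lower at 12 h than at 6 h (−0.43 ± 0.05, adjusted p = 9.82e-05). At 12 h its change against untreated cells was −0.02 (95% interval −0.13 to 0.10). At 24 h all 3 arrays lay below the untreated ones, but the change of −0.15 ± 0.05 had an adjusted p of 0.0507. It passed in 7 of 22 alternatives, among them those without Ang II 6 h replicate 1 (adjusted p = 0.0393), 6 h replicate 2 (adjusted p = 0.0465) or 24 h replicate 1 (−0.19, adjusted p = 0.0287).

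Bmp2 (NCBI gene 29373), a ligand that induces bone and cartilage, was the only measured member that limma called lower than in untreated cells. It had 7.69, 7.54 and 7.47 in untreated cells, 7.27, 6.71 and 7.20 at 6 h, 6.64, 7.13 and 7.13 at 12 h, and 7.52, 7.35 and 7.57 at 24 h. These values lay on both sides of the array medians (7.22 to 7.32), and their distance from background was not tested. The 6 h and 12 h arrays lay below the untreated ones, with 1 low array in each group, and the 24 h arrays overlapped them. The fall was 1.42-fold at 6 h (log2 change −0.51 ± 0.16, SE, n = 3 per group, limma adjusted p = 0.0234) and 1.51-fold at 12 h (−0.60 ± 0.16, adjusted p = 0.0133). At 24 h the change was −0.09 (95% interval −0.43 to 0.25), and the level was above that of 12 h (0.51 ± 0.16, adjusted p = 0.0309).

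The Bmp2 calls were sensitive to which arrays were kept. At 6 h the call was lost without Ang II 6 h replicate 2 (log2 change −0.33, adjusted p = 0.0896), without untreated replicate 1 (−0.45, adjusted p = 0.0851) and without untreated replicate 2 (−0.52, adjusted p = 0.0517). At 12 h it was lost without untreated replicate 1 (−0.54, adjusted p = 0.0551) and without Ang II 12 h replicate 1 (−0.43, adjusted p = 0.05). Between 24 h and 12 h it was lost without Ang II 12 h replicate 1 (0.35, adjusted p = 0.1), 24 h replicate 1 (0.49, adjusted p = 0.0778) or 24 h replicate 3 (0.47, adjusted p = 0.0872). It was also lost with all arrays kept, under quantile normalization (adjusted p = 0.0574) and with all probe sets tested (adjusted p = 0.0513). With the narrowest array of each Ang II group left out together, which removes both low arrays, all 3 of these calls passed. The low arrays, 6 h replicate 2 and 12 h replicate 1, also had the narrowest interquartile range of their groups, 3.31 each against 3.37 to 3.44 in the others of the 2 groups. The 24 h arrays, at 3.22 to 3.30, were narrower still and had higher Bmp2 values. The part of array spread in the Bmp2 values was not tested.

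Alpl (NCBI gene 25586), the phosphatase that removes pyrophosphate, changed little at a low level, near the array medians of 7.22 to 7.32. How far its signal stood above background was not tested. It had 7.09, 7.18 and 7.19 in untreated cells, 7.12, 7.32 and 7.20 at 6 h, 7.02, 7.15 and 7.15 at 12 h, and 7.41, 7.39 and 7.27 at 24 h. Only the 24 h arrays lay wholly above the untreated ones. The change against untreated cells was 0.06 at 6 h (95% interval −0.08 to 0.20), −0.05 at 12 h (−0.18 to 0.09) and 0.20 ± 0.06 at 24 h (1.15-fold, SE, n = 3 per group, limma adjusted p = 0.0289). The 24 h call was lost without untreated replicate 1 (0.17, adjusted p = 0.104), untreated replicate 2 (0.22, adjusted p = 0.0528), 24 h replicate 1 (0.18, adjusted p = 0.0867) or 24 h replicate 2 (0.19, adjusted p = 0.088), and with quantile normalization (0.16, adjusted p = 0.0602). Against 12 h, the 24 h level was higher by 0.25 ± 0.06 (adjusted p = 0.0116).

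Ordered by level, the groups fell into several patterns. For Enpp1 the order was 12 h, 6 h, 24 h and untreated, with no detectable difference between the first pair. Mgp followed the order 12 h, 6 h, 24 h and untreated, and Ankh the order 6 h, 12 h, 24 h and untreated, with every step past the test. Spp1 and Tnfrsf11b were highest at 24 h and lowest in untreated cells, and their step between 6 h and 12 h did not pass. For Tnfrsf11b the 12 h arrays still lay above those of 6 h (0.10 ± 0.04, limma adjusted p = 0.107). Runx2 was highest at 6 h, then at 12 h, with no detectable difference between untreated cells and 24 h. In Slc20a1 only the step below 6 h passed. No neighbouring steps passed for Alpl or Bmp2. At 12 h against 6 h, 1 member was higher and 3 lower, against 13.1% and 13.9% of all genes (27% together), and 5 did not overlap, against 39.3%. At 24 h against 12 h, 4 were higher and 4 lower, against 14% and 13.5% of all genes (27.5% together), and 9 did not overlap, against 40.3%. At 24 h against 6 h, 2 were higher and 5 lower, against 19.4% and 19.8% of all genes (39.2% together), and 8 did not overlap, against 48.9%.

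Promoter sequences from RefSeq (rat assembly GRCr8, 250 bases before to 50 after a start site) were at hand for 4 of the 9 measured members. Those of Ankh and Runx2, which were both highest at 6 h, and of Spp1, a known target of Runx2 that was highest at 24 h, are shown with the Runx core motifs TGTGGT and TGCGGT (either strand) in capitals. Runx2 has 2 listed start sites, and its probe set does not tell which was used.
Runx2 at chr9:23664808-23665107 (plus strand): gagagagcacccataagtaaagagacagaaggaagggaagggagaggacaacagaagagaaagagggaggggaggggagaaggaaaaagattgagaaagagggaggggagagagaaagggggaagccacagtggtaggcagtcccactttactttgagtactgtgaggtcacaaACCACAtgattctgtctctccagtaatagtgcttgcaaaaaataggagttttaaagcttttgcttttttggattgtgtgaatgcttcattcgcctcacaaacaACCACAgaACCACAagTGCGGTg
Runx2 at chr9:23742990-23743289 (plus strand): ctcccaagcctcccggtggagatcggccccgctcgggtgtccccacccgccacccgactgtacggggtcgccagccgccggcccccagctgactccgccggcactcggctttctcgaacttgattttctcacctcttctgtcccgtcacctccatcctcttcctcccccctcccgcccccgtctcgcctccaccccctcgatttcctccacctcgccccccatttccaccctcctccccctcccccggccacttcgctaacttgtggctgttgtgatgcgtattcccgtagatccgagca
Spp1 at chr14:5619755-5620054 (minus strand): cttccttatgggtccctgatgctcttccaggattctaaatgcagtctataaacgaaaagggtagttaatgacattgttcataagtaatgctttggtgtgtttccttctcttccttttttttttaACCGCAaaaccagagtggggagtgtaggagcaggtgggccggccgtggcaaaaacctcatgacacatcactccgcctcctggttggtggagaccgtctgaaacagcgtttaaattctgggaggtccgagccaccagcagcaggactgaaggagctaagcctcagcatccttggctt
Ankh at chr2:79883201-79883500 (plus strand): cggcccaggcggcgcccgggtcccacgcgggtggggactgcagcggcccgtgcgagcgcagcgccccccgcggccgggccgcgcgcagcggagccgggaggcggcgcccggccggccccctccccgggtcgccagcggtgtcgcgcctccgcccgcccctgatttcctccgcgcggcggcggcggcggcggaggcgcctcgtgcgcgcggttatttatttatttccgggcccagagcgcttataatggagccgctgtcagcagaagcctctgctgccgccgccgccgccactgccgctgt
The upstream Runx2 window held 4 Runx motifs, beginning 76 bases before the start site and at bases 28, 36 and 44 after it, and the Spp1 window held 1, beginning 126 bases before. Neither motif was found in the downstream Runx2 window, in that of Ankh or in that of Alpl, whose sequence is not shown. Among 33469 rat promoter windows of the same length, 22.9% held at least 1 of the 2 motifs. The AP-1 motif TGANTCA (7.33% of all windows) and the CRE motif TGACGTCA (1.83%) were in none of the windows of these members. Such matches describe the letters of the window only.

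Genes acting in the same steps as the members were read from lists named by role. Their counts stand against shares of all genes of 18.6% higher and 17.2% lower at 6 h, 13.3% higher and 13.3% lower at 12 h, and 15.3% higher and 14.7% lower at 24 h, and the same shares apply to the marker lists. No list was tested against other genes. Of 14 further genes of pyrophosphate, phosphate and adenosine handling, 5 rose and 1 fell at 6 h, 7 rose and 0 fell at 12 h, and 3 rose and 2 fell at 24 h. Their median log2 change was 0.08, 0.18 and 0.13. Slc20a2, the other type III phosphate transporter (PiT-2), rose at 6 h (0.93 ± 0.04), at 12 h (0.72 ± 0.04) and at 24 h (0.30 ± 0.04). Nt5e, which makes adenosine from AMP and whose loss in humans calcifies arteries, rose at 6 h (0.66 ± 0.11) and 12 h (0.60 ± 0.11). Its mean in untreated cells was low (6.51). Xpr1, the phosphate exporter, rose at 6 h (0.20 ± 0.05) and at 12 h (0.34 ± 0.05). Entpd1, which removes ATP, rose at 6 h (0.16 ± 0.05), 12 h (0.27 ± 0.05) and 24 h (0.76 ± 0.05). The adenosine transporter Slc29a1 rose at 12 h (0.17 ± 0.05) and fell at 24 h (−0.70 ± 0.05). Enpp3 fell at 24 h (−0.41 ± 0.07).

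Osteopontin acts through Cd44 and integrins. Of 7 measured receptor genes, 6 rose and 1 fell at 6 h, 5 rose and 0 fell at 12 h, and 4 rose and 0 fell at 24 h, with medians of 0.46, 0.60 and 0.21. Cd44 rose by 1.40 ± 0.05 at 6 h, 0.79 ± 0.05 at 12 h and 0.31 ± 0.05 at 24 h. Itga5 rose by 1.33 ± 0.04, 0.99 ± 0.04 and 0.70 ± 0.04 at the same times, and Itga4 by 1.08 ± 0.08, 0.70 ± 0.08 and 0.33 ± 0.08. The mean of Itga4 in untreated cells was low (5.91). Itgb3, the partner of the alpha v integrin, rose at 6 h (0.46 ± 0.08). The alpha v gene itself, Itgav, was not measured, nor were Itga8 and Itga9.

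Of 15 mineral-binding and Gla protein genes, 1 rose and 1 fell at 6 h, 3 rose and 2 fell at 12 h, and 1 rose and 4 fell at 24 h, with medians of 0.01, 0.0082 and 0.07. Fam20c, the kinase that phosphorylates osteopontin, rose at 6 h (0.68 ± 0.07) and 12 h (0.60 ± 0.07) and fell at 24 h (−0.24 ± 0.07). Gas6, another Gla protein, fell at 6 h (−0.42 ± 0.05), 12 h (−0.45 ± 0.05) and 24 h (−0.28 ± 0.05). Of 7 measured genes of the RANK ligand axis and of osteoclasts, 2 rose and 0 fell at 6 h and at 12 h. At 24 h, 1 rose and 1 fell. The medians were 0.0067, 0.07 and −0.09 at 6, 12 and 24 h. Tnfrsf11a, Oscar, Ocstamp and Dcstamp were listed too but not measured. Csf1, the macrophage growth factor, was higher at 6 h (0.43 ± 0.04) and lower at 24 h (−0.11 ± 0.04). Acp5 was higher at 6 h (0.30 ± 0.05), 12 h (0.38 ± 0.05) and 24 h (0.26 ± 0.05).

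Beside Runx2, 18 further osteochondrogenic transcription factor genes were measured. At 6 h, 8 rose and 4 fell, at 12 h 0 rose and 5 fell, and at 24 h 5 rose and 5 fell, with medians of 0.03, −0.02 and 0.06. Dlx5, a homeobox gene of osteoblasts, rose at 6 h (0.86 ± 0.07), as did Twist2, which restrains Runx2 (0.70 ± 0.06), while Sox6, a partner of Sox9 in cartilage, fell (−0.67 ± 0.06). Msx2, a homeobox gene that Bmp2 induces, rose at 24 h (0.51 ± 0.10), when Cbfb, the DNA-binding partner of Runx2, fell (−0.35 ± 0.05). At 6 h both were higher than in untreated cells (0.31 ± 0.10 and 0.14 ± 0.05). Msx2 was low, at 6.01 in untreated cells and 6.53 at 24 h, within the range of the leukocyte and macrophage markers (5.22 to 6.87). At 24 h Sox6 was higher than in untreated cells (0.32 ± 0.06) and Dlx5 was lower (−0.25 ± 0.07). Zfp521 fell at 6 h (−0.54 ± 0.07), 12 h (−0.29 ± 0.07) and 24 h (−0.46 ± 0.07). Of 16 bone and cartilage matrix genes, 2 rose and 2 fell at 6 h, 2 rose and 3 fell at 12 h, and 3 rose and 3 fell at 24 h, with medians of 0.000073, −0.04 and 0.09. Acan, the cartilage proteoglycan, was 2.38 ± 0.04 higher at 6 h and 2.19 ± 0.04 higher at 24 h. The cartilage collagen gene Col11a1 (−1.09 ± 0.05) and the osteoblast proteoglycan gene Omd (−1.89 ± 0.09) fell at 24 h, and both had fallen at 6 h and 12 h too. Col10a1, the collagen of hypertrophic cartilage, rose at 24 h (0.63 ± 0.06).

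Of 22 further ligands, receptors, antagonists and targets of BMP signalling, 3 rose and 13 fell at 6 h, 4 rose and 14 fell at 12 h, and 5 rose and 8 fell at 24 h, with medians of −0.28, −0.27 and −0.08. The ligand gene Bmp6 changed by −1.99 ± 0.07 at 12 h and −1.51 ± 0.07 at 24 h, and had fallen by 6 h too. Id1, a target gene of BMP receptors, had −1.26 ± 0.08 at 12 h and −0.86 ± 0.08 at 24 h. The extracellular antagonists Fst (1.41 ± 0.07) and Grem1 (1.35 ± 0.06) rose at 6 h.

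**Figure D3:**
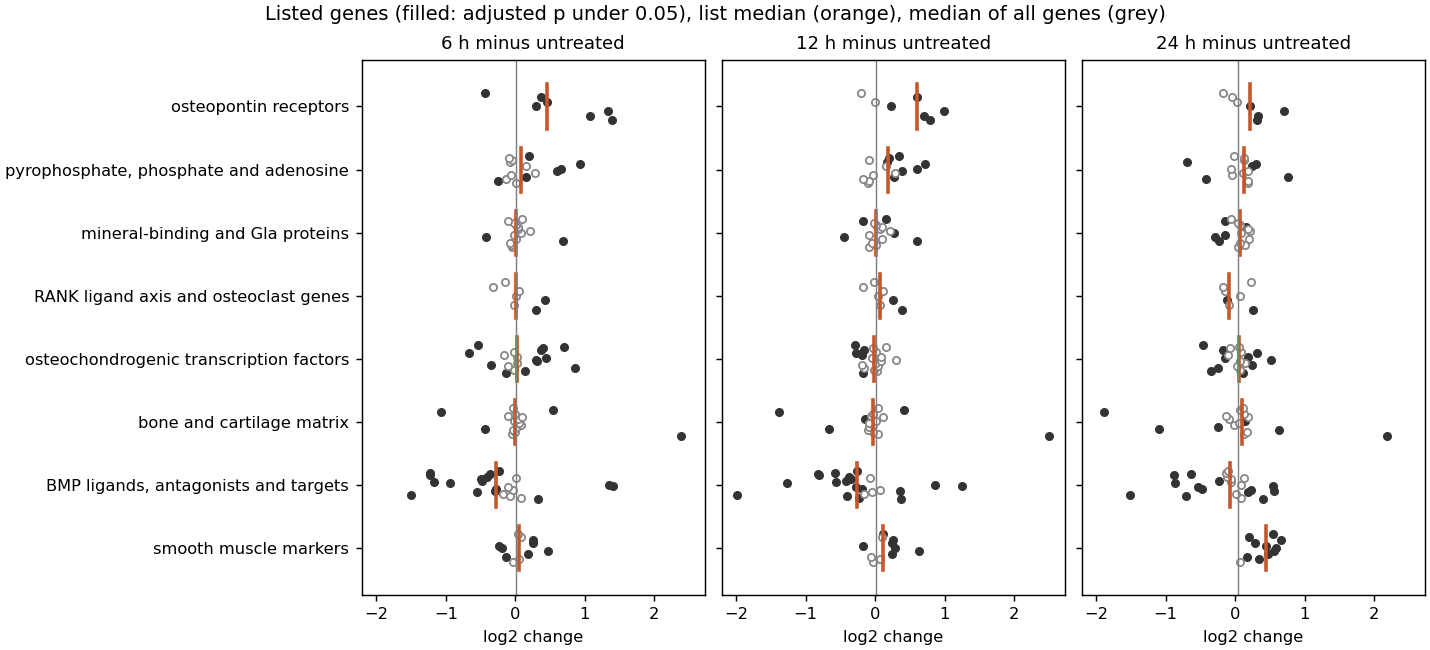
Log2 change against untreated cells (horizontal axis) of each gene in 8 lists (rows) after 6, 12 and 24 h of Ang II. Filled points passed an adjusted p of 0.05, orange bars are list medians and the grey line the median of all 14506 genes. The list medians furthest from the grey line are those of the osteopontin receptors at 12 h (0.60) and at 6 h (0.46), and of the smooth muscle markers at 24 h (0.44).

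The marker lists differed in how many members were called. Of the 11 smooth muscle markers, 4 rose and 3 fell at 6 h, 6 rose and 1 fell at 12 h, and 10 rose and 0 fell at 24 h, when their mean per array was 12.8 in all 3 arrays, against 12.4 to 12.5 in untreated cells. Of the 8 fibroblast markers 0 rose at any time, while 4, 4 and 3 fell, and their mean per array was 7.47 to 7.51 at 24 h, against 7.82 to 7.85 in untreated cells. Of the 9 leukocyte and macrophage markers 0 passed the limma test at any of the 3 times. At an unadjusted p under 0.05, 0, 1 and 2 of them were higher at 6, 12 and 24 h. The shares of all genes given above do not apply to that looser threshold, at which all genes were not counted. Of the 8 endothelial markers 0 rose and 2 fell at 6 h, 1 rose and 2 fell at 12 h, and 2 rose and 1 fell at 24 h. The part of these shifts in the members' changes was not tested.

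The genes most like the 4 members with the widest range of group means were found by Pearson correlation over the 12 arrays, a description that is set by the differences between the groups. Nearest to Ankh were Loxl4 (0.992), Cflar (0.990) and Cd44 (0.989), all highest at 6 h. Nearest to Mgp were Tpi1 (0.986), Slc2a6 (0.984) and Ifitm3 (0.979), all highest at 12 h. Nearest to Enpp1 were Actn1 (0.997), Il1rap (0.997) and Acan (0.995). Nearest to Tnfrsf11b were Il1rl2 (0.991), Cap1 (0.991) and Npr1 (0.990), all highest at 24 h. Likeness of shape did not mean likeness of size, since the 6 h change was 2.38 for Acan, 1.21 for Enpp1 and 0.47 for Actn1.

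**Figure D4:**
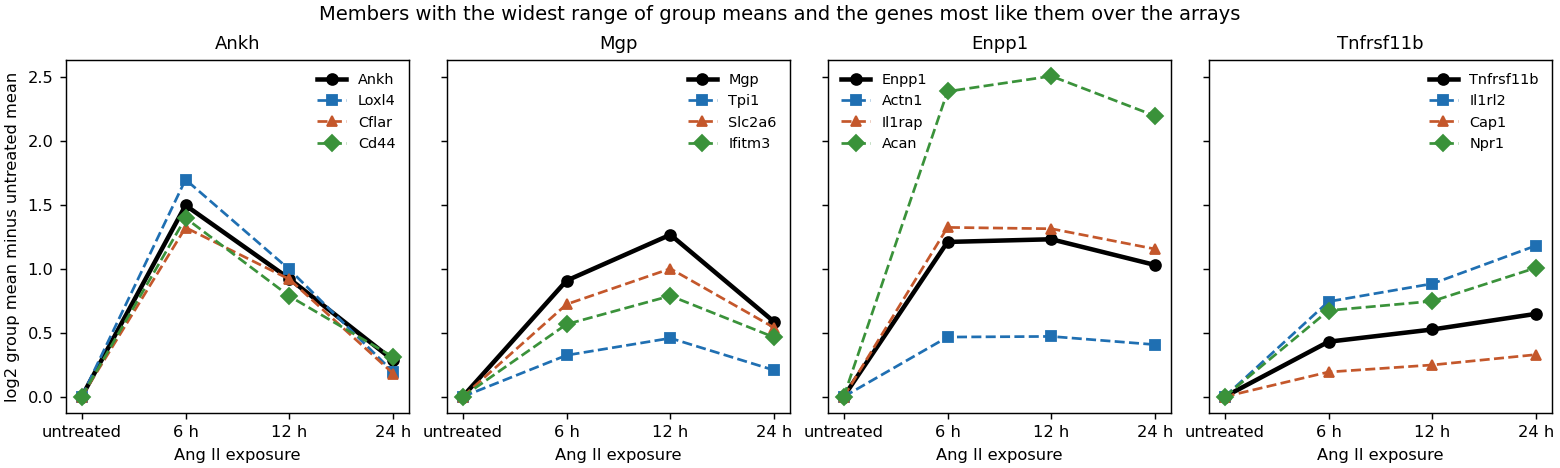
Difference of group means from untreated cells on the log2 scale (vertical axis) over untreated, 6, 12 and 24 h of Ang II for Ankh, Mgp, Enpp1 and Tnfrsf11b (black) and the 3 genes with the highest correlation to each over 12 arrays (coloured, dashed). Ankh and its neighbours are highest at 6 h, Mgp and its neighbours at 12 h, and Tnfrsf11b and its neighbours at 24 h.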

How the data were processed

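The authors deposited log2 expression values for each probe set. The submitters' processing notes name RMA and Partek as the tools. For their versions, the background correction, the summary level and the genome build, the sources used here give nothing. Per the labels' protocols, 100 ng of total RNA was labelled with biotin. The table has 29214 probe sets, of which 15310 had 1 gene symbol in the platform annotation, and each of 14506 genes was represented by its brightest probe set, averaged over 12 arrays. Symbols were checked against RefSeq gene identifiers, and 0 changed. No dim gene was left out and no array was left out.

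Groups were taken from the sample titles. A limma 3.58.1 model (R 4.3.3) with 4 group means was fitted to all genes and arrays, with 8 residual degrees of freedom and moderated variances. P-values are two-sided, with Benjamini-Hochberg adjustment across the 14506 genes of each comparison and a threshold of 0.05, and intervals are 95% and unadjusted. Steps were tested on simulated data. The members and lists were chosen with earlier results of these data known. Every member is named, and from each other list up to 4 genes per comparison with the largest change among those that passed. The number of arrays limits the precision.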

Additional observations from a re-analysis of the deposited data

Results flagged for a closer look

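All 9 measured members are listed below, since each differed between 2 times of Ang II in a direct contrast of the times (limma, adjusted p under 0.05). Of all genes, 27% passed at 12 h against 6 h, 27.5% at 24 h against 12 h and 39.2% at 24 h against 6 h. Each of these shares is for a single comparison, whereas a member was listed if it passed in any of them. The share of all genes that passed in any of them was not counted. It cannot be below 39.2%, so the listing of all 9 members cannot be set against these shares. All values are log2 differences, the later time minus the earlier. Ankh differed by −0.57 at 12 h against 6 h, −0.64 at 24 h against 12 h and −1.21 at 24 h against 6 h. Mgp differed by 0.36, −0.68 and −0.32 in the same comparisons, and Runx2 by −0.30, −0.26 and −0.56. Slc20a1 differed by −0.43 at 12 h against 6 h and by −0.57 at 24 h against 6 h. Enpp1 differed by −0.20 at 24 h against 12 h and by −0.18 at 24 h against 6 h. Spp1 (0.13 and 0.19) and Tnfrsf11b (0.12 and 0.22) were higher at 24 h than at 12 h and than at 6 h. Alpl (0.25) and Bmp2 (0.51) were higher at 24 h than at 12 h. At 24 h against 12 h the call was lost in 11 of 22 alternatives for Spp1 and in 15 of 22 for Tnfrsf11b. For Bmp2 it was lost in 5 of 21 and for Alpl in 1 of 21.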

How the results depend on the processing

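Each member's change was recomputed under 22 alternatives, 1 of which, leaving out 1 array per Ang II group (that with the narrowest interquartile range), was chosen after seeing the data. Of 1176 such values, 1103 kept their direction and side of the threshold, 43 lost the call, 20 gained one and 10 changed sign. In many alternatives only the p-value could move, not the change. Among these were leaving out an array of a group not compared, fitting only the 2 groups compared, the replicate block and testing all probe sets. Those alternatives could not test the direction. The rises of Enpp1, Ankh, Mgp, Spp1 and Tnfrsf11b against untreated cells passed in all 330 values. The changes of sign were small values that had not passed: Slc20a1 at 12 h against untreated (−0.042 to 0.0077 without single arrays, 0.00056 with median centring, 0.0068 without the narrowest arrays), Runx2 at 24 h against untreated (−0.077 to 0.016 without single arrays, 0.026 with quantile normalization, 0.023 with median centring) and Bmp2 at 12 h against 6 h (−0.26 to 0.074 without single arrays). At 24 h against 12 h, 8 members were called, and 5 without Ang II 24 h replicate 3, 5 with all probe sets tested, 5 without the narrowest arrays, and 5 to 8 over the arrays left out singly. Without the narrowest arrays, which include both low arrays of Bmp2, its falls passed, at −0.33 at 6 h and −0.43 at 12 h. The same changes did not pass in limma when only the low array of the compared group was left out (adjusted p = 0.0896 and 0.05). Alpl and Bmp2 lay below the median level and could not be fitted with dim genes left out. Arrays of the same replicate number in different groups had deviations that correlated at −0.10 to 0.30 (median 0.026, 18 pairs), and those of different numbers at −0.28 to 0.26 (median −0.02), so the numbers were not taken as pairs. With the replicate number as a block, 5059 genes were called at 6 h, against 5191, and the calls lost were those of Spp1 (adjusted p = 0.0549) and Tnfrsf11b (adjusted p = 0.0667) at 24 h against 12 h. Median centring gave 3559 higher and 1713 lower genes at 24 h against untreated, where the fit without it gave 2222 and 2136, and 2957 higher and 1725 lower at 24 h against 12 h, in place of 2028 and 1955. The cause of these shifts was not tested.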
